A study of Mus musculus with 4 samples.

Results

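Lining macrophages form the layer of macrophages at the surface of the synovium, the tissue that encloses a joint. Here they were chosen by UMI counts, as the barcodes of the libraries from days 1, 2 and 5 after serum transfer with at least 3 UMIs (unique molecular identifiers, 1 per captured transcript) of Sparc and at least 3 of Vsig4. The summed UMIs of the immediate early genes Atf3, Egr1, Fosb and Nr4a1 had to be under 5, and a barcode had to hold at least 500 genes and under 10% mitochondrial UMIs. This rule chose 1680 of the 10599 barcodes that passed on those days, and of 14314 in the series with day 0. There were 795 lining macrophages at day 1, 499 at day 2 and 386 at day 5, set against the 3847, 2223 and 2849 other passing barcodes of the same libraries. Because the rule used UMI counts of the same cells, every difference between lining macrophages and other barcodes is a description, and no test was made of any.

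All libraries came from hind paws of Cx3cr1creER:tdTomato mice, in which tamoxifen lets Cre, driven by Cx3cr1, switch on the red reporter tdTomato for good wherever Cx3cr1 is active. Tamoxifen was given 4 weeks before arthritogenic K/BxN serum, whose antibodies cause joint inflammation in the recipient, and day 0 mice were taken at steady state. The sort kept CD45+CD11b+Ly6G- cells, which leaves out neutrophils and most cells of the joint that are not myeloid. Each day had 1 library, and its number of mice is not in the labels, so day and library cannot be told apart and differences between days lack replicates. Intervals in the text are exact 95% intervals that cover counting error only.

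In the mouse joint, the lining macrophages renew locally, carry Cx3cr1 and the complement receptor Vsig4, and are known to form a closely packed barrier-like layer held by tight junctions. Macrophages below the lining, called interstitial here, carry Mrc1, Cd163 and Retnla, and others carry MHC class II, the proteins that present antigen to T cells. Joint inflammation brings in monocytes from the blood, which carry Ly6c2 and Plac8.

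The 250 bases before the RefSeq start site of both genes that chose the cells and of Cx3cr1, which drives the reporter's Cre, are given 5′ to 3′ on the gene's strand in the GRCm38.p6 build. Capitals mark GAGGAA, searched on both strands, a core sequence bound by PU.1, the master regulator of myeloid cells. Sparc lies on the minus strand at chr11:55420081-55420330, Vsig4 on the minus strand at chrX:96293439-96293688 and Cx3cr1 on the minus strand at chr9:120068297-120068546. The Vsig4 stretch held 2 matches, beginning at bases 96 and 198 of the stretch, and the Sparc and Cx3cr1 stretches held none. Of 32851 stretches of the same length in the table, 23.3% held at least 1 match. A match is a description of these letters and not of binding.
Sparc: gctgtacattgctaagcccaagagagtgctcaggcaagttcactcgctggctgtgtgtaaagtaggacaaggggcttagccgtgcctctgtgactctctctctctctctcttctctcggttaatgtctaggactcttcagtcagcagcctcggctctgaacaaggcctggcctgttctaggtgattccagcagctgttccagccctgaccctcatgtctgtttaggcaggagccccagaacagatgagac
Vsig4: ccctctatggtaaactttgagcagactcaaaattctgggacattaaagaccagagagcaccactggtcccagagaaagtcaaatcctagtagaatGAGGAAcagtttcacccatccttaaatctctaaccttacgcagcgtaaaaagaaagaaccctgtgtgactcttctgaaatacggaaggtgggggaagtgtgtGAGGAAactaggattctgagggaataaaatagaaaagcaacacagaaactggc
Cx3cr1: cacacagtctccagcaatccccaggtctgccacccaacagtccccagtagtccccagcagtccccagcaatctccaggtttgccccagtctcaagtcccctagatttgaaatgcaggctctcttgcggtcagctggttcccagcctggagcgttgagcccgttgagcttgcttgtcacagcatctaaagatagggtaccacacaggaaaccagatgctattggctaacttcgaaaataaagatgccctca

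The libraries of days 1, 2 and 5 had 4642, 2722 and 3235 passing barcodes. Lining macrophages had medians of 4600, 4938 and 4529.5 UMIs per cell on those days, against 3369, 3970 and 3807 UMIs in the other barcodes, and gave 3879381, 2587156 and 1871613 UMIs in sum. The day 0 library stood apart, with a median of 832 UMIs over its 7542 barcodes, so it entered no comparison of expression. Pairs of libraries shared 13 to 53 barcode sequences, and lining macrophages of days 1 and 2 shared 1, those of days 1 and 5 shared 2 and those of days 2 and 5 shared 0.

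Lining macrophages were 17.1% of passing barcodes at day 1 (16.1 to 18.2%), 18.3% at day 2 (16.9 to 19.8%) and 11.9% at day 5 (10.8 to 13.1%). The day 5 share was below those of days 1 and 2 by more than counting error. Barcodes that met the Sparc and Vsig4 limits but held 5 or more UMIs of the 4 early genes were kept out, and these were 3.83%, 9.55% and 5.35% of the libraries. With them, the shares were 21.0%, 27.9% and 17.3%, so day 2 stood above day 1 by more with them than without. In the same libraries, barcodes with at least 2 UMIs each of the monocyte genes Ly6c2 and Plac8 numbered 10, 24 and 313. A share depends on every other cell that entered the sort, and how far the larger number of monocyte barcodes at day 5 sets the lower share was not tested.

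**Figure D1:**
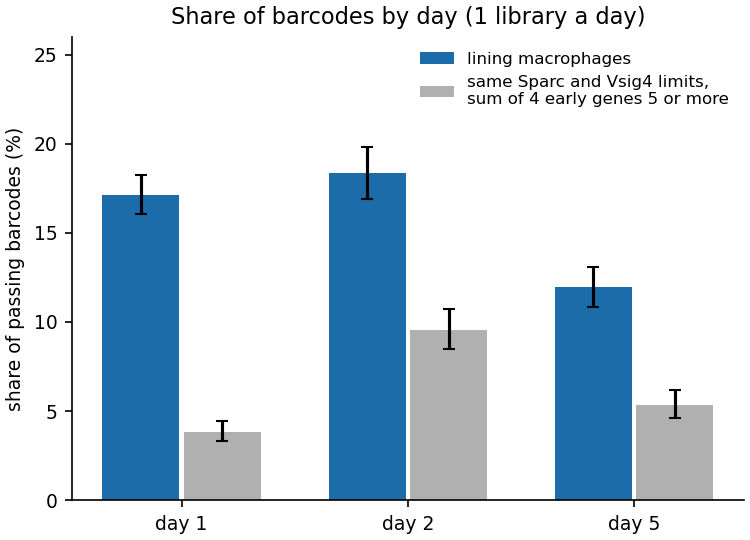
Share of passing barcodes (%) at days 1, 2 and 5 for lining macrophages (blue) and for barcodes with the same Sparc and Vsig4 limits and 5 or more UMIs of Atf3, Egr1, Fosb and Nr4a1 (grey). Bars give 1 library a day and error bars the exact 95% binomial interval for counting error; lining macrophages stood at 17.1%, 18.3% and 11.9%.

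Sparc, a secreted protein that binds collagen, had a median of 10, 11 and 10 UMIs per lining macrophage at days 1, 2 and 5, and Vsig4 had 20, 21 and 20. The other barcodes had medians of 0 for both genes. In CPM (counts summed over the cells of a group and scaled to the same total of UMIs), Sparc stood at 2371, 2451 and 2392 CPM in lining macrophages, against 409, 609 and 279 CPM in other barcodes. Vsig4 stood at 4652, 4484 and 4529 CPM in lining macrophages, against 644, 1019 and 431 CPM in other barcodes. These levels follow from the rule. At the limits, 44, 30 and 24 cells were inside with exactly 3 Sparc UMIs, and 52, 32 and 18 barcodes were just outside with 2. The cells just inside had Olfml3 at 415, 365 and 399 CPM and TdTomato at 1008, 997 and 1022 CPM. The barcodes just outside had Olfml3 at 447, 274 and 349 CPM and TdTomato at 801, 724 and 770 CPM, so these markers did not end at the limit.

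The 3 lining markers that the rule did not use were high on every day. Olfml3, a secreted olfactomedin-family protein, stood at 605, 618 and 587 CPM in lining macrophages at days 1, 2 and 5, against 144, 209 and 95.2 CPM in other barcodes. Cx3cr1, the fractalkine receptor, stood at 320, 351 and 340 CPM in lining macrophages, against 96.7, 140 and 76.8 CPM in other barcodes. S100b, a calcium-binding protein, stood at 509, 562 and 491 CPM in lining macrophages, against 97.9, 154 and 66.8 CPM in other barcodes. At least 1 UMI of Olfml3 was found in 87.7%, 87.8% and 84.7% of lining macrophages, against 3.51% of the day 5 monocyte barcodes (median depths 4529.5 and 4055 UMIs at day 5). The label lining macrophage fits these markers on all 3 days. They were listed for these cells together with Sparc and Vsig4, so the fit is a description and no independent support for the label.

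TdTomato, the reporter transcript, stood at 1166, 1208 and 1088 CPM in lining macrophages and at 427, 658 and 278 CPM in other barcodes. It was found in 91.3%, 94.8% and 94.3% of lining macrophages, and in 81.7%, 86.1% and 82.2% of them at a common depth of 2000 UMIs per cell, reached by thinning and without 10, 16 and 4 shallower cells. Barcodes with interstitial markers (at least 2 UMIs each of Cd163 and F13a1) had it in 26.9%, 36.4% and 36.2% of cells, and in 21.3%, 28.7% and 27.9% after thinning, without 136, 36 and 10 shallower ones. Monocyte barcodes of day 5 had it in 27.2%, and in 15.7% after thinning. The monocyte barcodes were not shown to lack the reporter, so no background level of TdTomato was set. The counting intervals of the 3 thinned shares in lining macrophages overlapped.

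**Figure D2:**
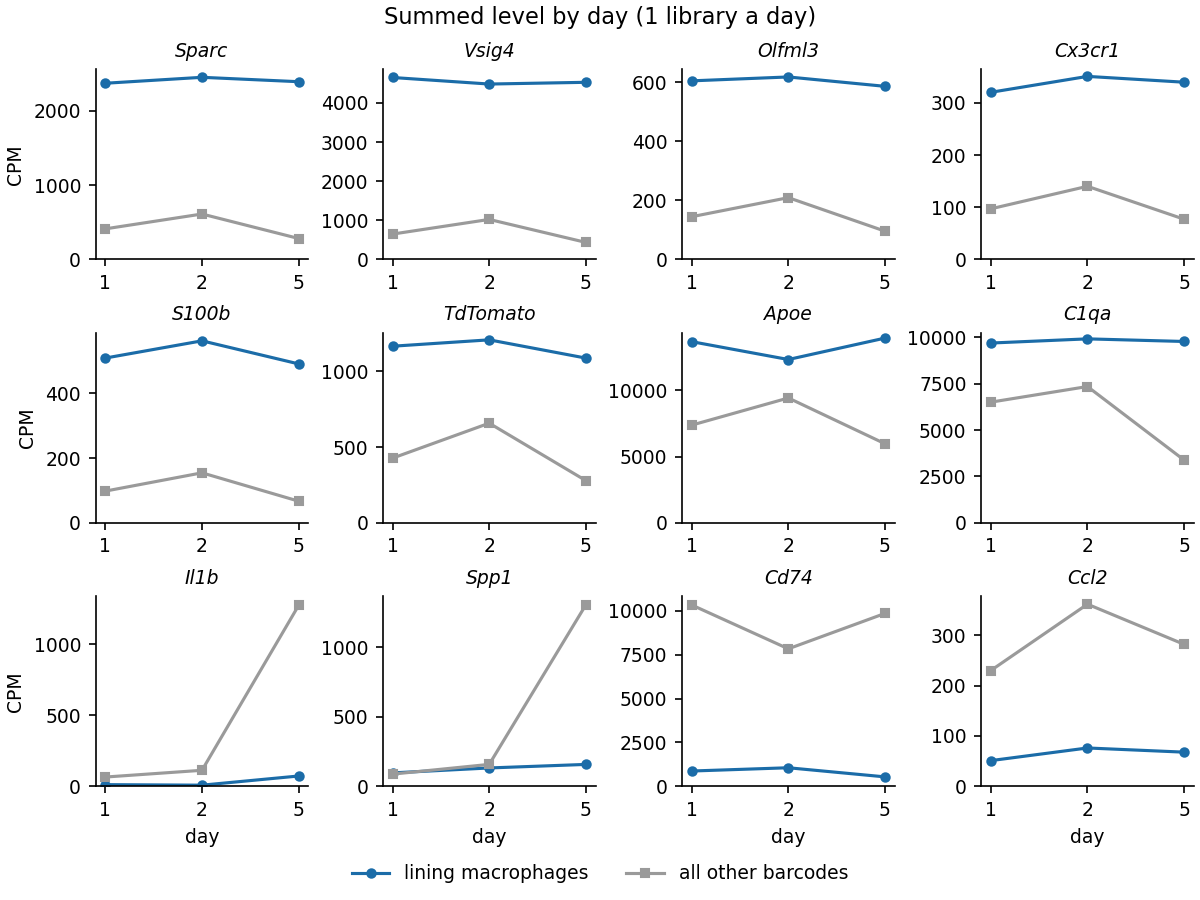
Summed level (CPM, axes from 0) at days 1, 2 and 5 of 12 genes in lining macrophages (blue circles) and in all other passing barcodes (grey squares), 1 library a day. The blue lines of Sparc, Vsig4, Olfml3, Cx3cr1, S100b, TdTomato and C1qa are nearly level, while Il1b and Spp1 stand at 1273 and 1306 CPM at day 5 in the other barcodes and at 72.7 and 158 CPM in lining macrophages.

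Against the other barcodes, 119 genes were at least 2-fold higher in lining macrophages at day 1 (1.67%) and 189 at least 2-fold lower (2.65%), 4.32% of the 7128 genes with a mean of at least 10 CPM. At day 2 the numbers were 85 higher (1.2%) and 179 lower (2.53%), 3.74% of 7067. At day 5 they were 428 higher (5.97%) and 446 lower (6.23%), 12.2% of 7164. The other barcodes include the 178, 260 and 173 kept out for their early genes, and others with some Sparc and Vsig4. Without barcodes that held a UMI of both genes, the numbers at day 1 were 157 higher and 200 lower of 7120 genes. At day 2 they were 149 higher and 211 lower of 7091, and at day 5 521 higher and 503 lower of 7164. Of 6750 genes measured on all 3 days, with all other barcodes kept, 59 were higher and 109 lower on each day. The day 5 number is larger while, as described further on, few genes of the lining macrophages themselves differed between days.

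Of 2216 genes that could be named, with a mean of at least 50 CPM on each day, 27 were 2-fold higher on all 3 days. The mean takes in both groups, so a gene could meet it through its level in either group alone, and the order is a description. They were led by Pcolce2, which encodes an enhancer of procollagen processing and met the mean through lining macrophages alone. At least 1 UMI of Pcolce2 was found in 18.6%, 23.4% and 20.5% of lining macrophages. Pcolce2 stood at 96.4, 121 and 115 CPM in lining macrophages, against 18.4, 28.9 and 7.14 CPM in other barcodes. Ecscr, a cell-surface protein first known from endothelium, stood at 176, 194 and 141 CPM in lining macrophages, against 36.5, 51.3 and 25.8 CPM in other barcodes. Chst1, a sulfotransferase of keratan sulfate, was 5.87-fold, 3.84-fold and 5.81-fold higher. Slc7a2, a transporter of arginine and other cationic amino acids, was 5.39-fold, 3.79-fold and 6.23-fold higher. Chst1 was found in 31.7%, 36.1% and 32.4% of lining macrophages and Slc7a2 in 26.3%, 25.7% and 28.0%. The groups stood apart on every day for each of these genes, and by least at day 2 for Pcolce2, Ecscr, Chst1 and Slc7a2.

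Pmepa1, a target and inhibitor of TGF-beta signalling, stood at 568, 622 and 592 CPM in lining macrophages, against 149, 196 and 124 CPM in other barcodes. F11r, the junctional adhesion molecule JAM-A, stood at 264, 265 and 284 CPM in lining macrophages, against 89.1, 113 and 83.3 CPM in other barcodes. Itgb5, an integrin chain that takes part in uptake of dead cells and in activation of TGF-beta, was 3.19-fold, 2.297-fold and 3.63-fold higher. The lysosomal enzymes Ctsd (cathepsin D) and Arsb (arylsulfatase B) were also in the first 15. Ctsd stood at 5535, 5281 and 5326 CPM in lining macrophages, against 1465, 2277 and 1154 CPM in other barcodes. Arsb was 2.49-fold, 2.50-fold and 4.63-fold higher. Syngr1, a protein of synaptic-type vesicles, and Tmem86a, a lysoplasmalogen-cleaving enzyme of the membrane, were on the list too, as were Olfml3, Cx3cr1 and S100b.

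The genes lower on all 3 days were 31 of the 2216 with at least 50 CPM. They were led by Cxcl2, a neutrophil-attracting chemokine, and by genes of MHC class II. Cxcl2 stood at 32.7, 53.0 and 67.3 CPM in lining macrophages, against 343, 775 and 1640 CPM in other barcodes. Cd74, the invariant chain of MHC class II, stood at 873, 1059 and 539 CPM in lining macrophages, against 10337, 7838 and 9855 CPM in other barcodes. H2-Aa was 12.1-fold, 6.31-fold and 16.5-fold lower, H2-Ab1 9.64-fold, 6.30-fold and 13.9-fold lower, and H2-Eb1 11.3-fold, 6.57-fold and 18.6-fold lower. H2-DMa, which loads peptide onto class II, was 6.07-fold, 4.70-fold and 7.81-fold lower. Ccr2, the receptor that brings monocytes into tissue, stood at 22.9, 20.9 and 30.5 CPM in lining macrophages, against 182, 139 and 414 CPM in other barcodes. Mgl2, a lectin of dermal and MHC class II-bearing macrophages, Ctsk, a collagen-cleaving protease of osteoclasts, and Mt2, a metallothionein, were 9.19-fold, 5.83-fold and 6.79-fold lower at day 1.

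**Figure D3:**
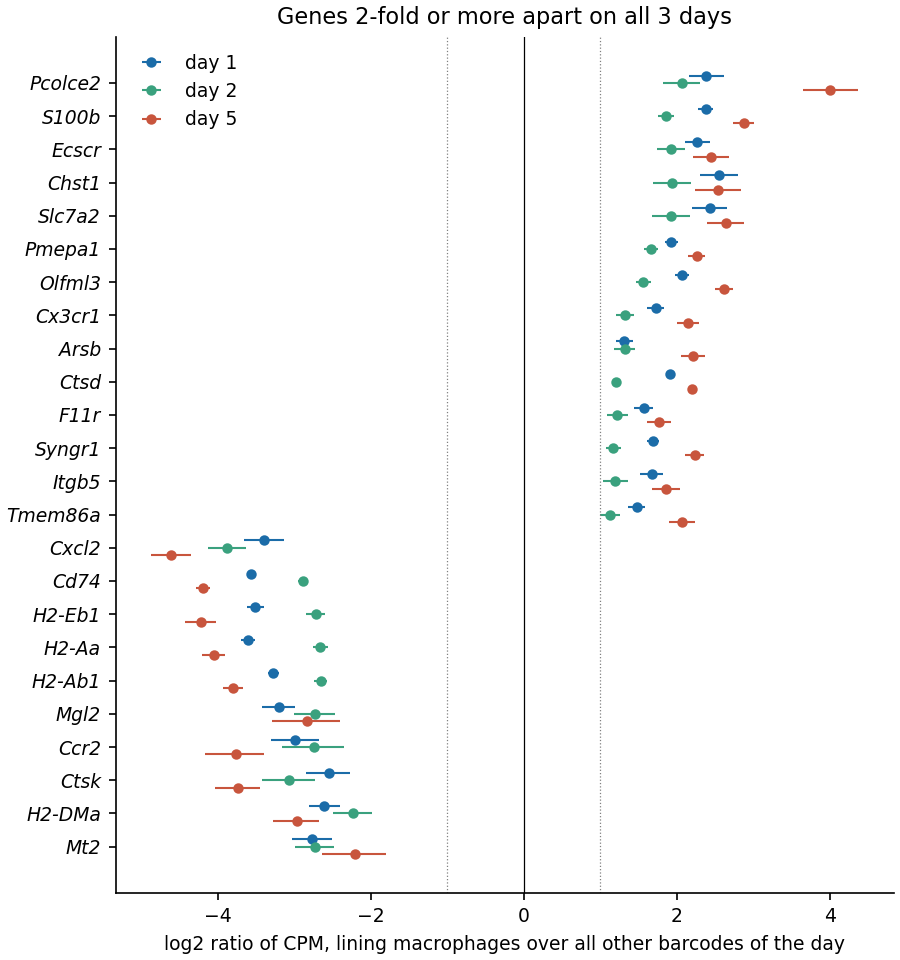
Log2 ratio of CPM in lining macrophages over all other barcodes at days 1, 2 and 5, for genes reported here among the first 15 at least 2-fold higher and the first 10 at least 2-fold lower on all 3 days. Points are 1 library a day, bars the exact 95% counting interval, and dotted lines mark 2-fold; Cd74, H2-Aa, H2-Ab1 and H2-Eb1 lie near a log2 ratio of -4 at day 5, and H2-DMa nearer to 0.

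By function, the lists are given by how many members passed 2-fold and by the median log2 ratio, beside medians of -0.01, 0.03 and 0.03 over all genes tested at days 1, 2 and 5. Of 18 measured genes known from microglia, the macrophages of the brain, 4, 1 and 10 were 2-fold higher in lining macrophages and 2 were lower on each day, with medians of 0.46, 0.47 and 1.14. Trem2, a lipid-sensing receptor, stood at 1664, 1558 and 1507 CPM in lining macrophages, against 795, 911 and 474 CPM in other barcodes. Gpr34, a receptor for lysophosphatidylserine, stood at 659, 643 and 617 CPM in lining macrophages, against 348, 374 and 154 CPM in other barcodes. Fcrls, an Fc receptor-like gene, and Siglech were the 2 lower at days 1 and 2, and Fcrls stood at 14.4, 15.1 and 18.2 CPM in lining macrophages and 37.7, 45.2 and 28.9 CPM in other barcodes. The larger number at day 5 went with lower levels in the other barcodes, as Trem2 and Gpr34 show.

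Genes for uptake of dead cells had medians of 0.39, 0.37 and 0.79 over 19, 19 and 20 measured genes, with 3, 1 and 9 past 2-fold higher and 0, 0 and 1 lower. Axl, a receptor tyrosine kinase that recognises dying cells through Gas6, stood at 86.9, 79.6 and 78.5 CPM in lining macrophages, against 41.9, 44.3 and 25.1 CPM in other barcodes. Timd4, a receptor for phosphatidylserine, stood at 139, 131 and 123 CPM in lining macrophages, against 83.6, 78.9 and 39.5 CPM in other barcodes. Mertk, the related receptor, was low in both groups, at 46.9, 34.4 and 28.3 CPM in lining macrophages and 35.9, 37.1 and 17.2 CPM in other barcodes. Slc7a11, a cystine transporter, was the 1 gene past 2-fold lower at day 5, at 2.14 CPM in lining macrophages and 86.6 CPM in other barcodes.

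Complement genes had medians of 0.37, 0.38 and 1.01 over 10, 10 and 11 measured genes, with 0, 0 and 6 past 2-fold higher and 1, 1 and 2 lower. C1qa, a chain of the first component, stood at 9688, 9914 and 9773 CPM in lining macrophages, against 6502, 7345 and 3381 CPM in other barcodes. Cfp, the activator properdin, was lower throughout, at 53.9, 62.2 and 65.2 CPM in lining macrophages and 249, 213 and 340 CPM in other barcodes. The 29 measured lysosomal genes had medians of 0.49, 0.33 and 0.66, with 1, 1 and 6 past 2-fold higher and 0 lower on each day. In the TGF-beta pathway 3, 1 and 4 genes passed 2-fold higher and 0, 0 and 1 lower, with medians of 0.23, 0.21 and 0.48 over 17, 16 and 17 genes. Of the 35 genes listed for junctions and cell polarity, 6, 5 and 7 reached 10 CPM, and F11r passed 2-fold on all 3 days. The whole list summed to 605, 610 and 640 CPM in lining macrophages, against 428, 448 and 350 CPM in other barcodes. F11r alone gave 1026, 685 and 532 of the list's 2348, 1579 and 1198 UMIs in lining macrophages, so the sum is in large part that of F11r. Tjp1, which encodes the tight-junction scaffold ZO-1, stood at 0.258, 1.16 and 1.60 CPM in lining macrophages and 0.483, 0.627 and 0.844 CPM in other barcodes, too few UMIs to set the groups apart.

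Many inflammatory genes were lower than in other barcodes, in part by construction, since the rule took out barcodes with high early genes and these also held more of them. The summed proinflammatory list stood at 1010, 1085 and 1282 CPM in lining macrophages, against 1936, 3019 and 3721 CPM in the barcodes kept out. Of 13, 13 and 16 measured proinflammatory mediators, 6, 8 and 13 were 2-fold lower in lining macrophages and 0 higher, with medians of -0.62, -1.42 and -2.09. The genes measured differ by day, since a gene can enter by its level in other barcodes alone. Tnf, a cytokine central to arthritis, stood at 20.9, 24.4 and 24.6 CPM in lining macrophages, against 48.3, 84.1 and 58.6 CPM in other barcodes. Of 15 measured chemokines, 10, 9 and 7 were 2-fold lower and 0 higher, with medians of -2.17, -1.73 and -0.98. Ccl2, which attracts monocytes, stood at 51.0, 76.1 and 67.9 CPM in lining macrophages, against 230, 362 and 282 CPM in other barcodes. Ccl3, another attractant of leukocytes, differed little between the groups, at 143, 150 and 141 CPM in lining macrophages and 131, 194 and 156 CPM in other barcodes. All 7, 6 and 7 measured genes of MHC class II were 2-fold lower, with medians of -3.27, -2.66 and -3.85. Immediate early and stress genes outside the rule had medians of -0.77, -1.10 and -1.13 over 21 genes, but the rule removed barcodes with high counts of 4 such genes from the lining macrophages.

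Matrix proteins and their regulators were of both kinds. Timp2, an inhibitor of matrix metalloproteinases, stood at 1158, 1094 and 1195 CPM in lining macrophages, against 556, 559 and 328 CPM in other barcodes. Fn1, fibronectin, stood at 1150, 1415 and 1234 CPM in lining macrophages, against 382, 547 and 695 CPM in other barcodes. Mmp9, a gelatinase of osteoclasts and monocytes, stood at 0.258, 1.55 and 2.14 CPM in lining macrophages, against 28.6, 30.1 and 175 CPM in other barcodes. Of 15, 16 and 18 measured genes of this list, 5, 3 and 2 were 2-fold higher and 4, 5 and 11 lower. Fgf2, a fibroblast growth factor stood at 11.9, 14.7 and 18.7 CPM in lining macrophages, against 2.62, 3.66 and 2.38 CPM in other barcodes. Its mean passed 10 CPM at day 5 alone, and only through its level in lining macrophages, so no ratio is given for it. Fabp3, a fatty acid carrier, was 3.98-fold, 3.05-fold and 5.61-fold higher, and Nfia, a transcription factor, 2.11-fold, 2.20-fold and 3.76-fold higher.

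Marker lists of other cell types were checked by their summed level. The monocyte list summed to 147, 171 and 206 CPM in lining macrophages and to 298, 321 and 1848 CPM in other barcodes, with 8, 7 and 10 of its 10 genes above 0. Ly6c2 was at 0 at day 2, and F10 at days 1 and 2. Most of the sum in lining macrophages was Vcan, the matrix proteoglycan versican, at 108, 129 and 115 CPM against 20.4, 30.3 and 102 CPM in other barcodes. The dendritic cell list summed to 23.5, 32.5 and 16.0 CPM in lining macrophages against 172, 115 and 162 CPM, and the fibroblast list to 60.8, 78.5 and 56.1 CPM against 180, 156 and 189 CPM. The neutrophil list stood at 13.4, 10.4 and 6.95 CPM in lining macrophages against 6.42, 10.0 and 42.9 CPM in other barcodes, with 2 of its 9 genes above 0 in lining macrophages on each day. The Arg1 macrophage list stood at 111, 142 and 203 CPM in lining macrophages against 103, 183 and 1704 CPM. It was not lower at day 1, and the neutrophil list was not lower at days 1 and 2. The osteoclast list summed to 84.5, 82.7 and 111 CPM in lining macrophages against 283, 383 and 1358 CPM, and the endothelial list to 5.16, 4.25 and 2.14 CPM against 16.9, 13.2 and 17.1 CPM. The NK or T cell list summed to 2.58, 5.41 and 5.34 CPM in lining macrophages against 19.9, 13.9 and 15.7 CPM, and the B or plasma cell list to 46.4, 42.5 and 34.2 CPM against 166, 137 and 111 CPM. The part of these cell types in the differences was not tested. Of the fibroblast list, 7 of 10 listed genes were above 0 in lining macrophages at day 1, 8 of 8 at day 2 and 7 of 11 at day 5. Col1a1 and Postn were among those at 0 at days 1 and 5, while Dcn, the matrix proteoglycan decorin, had 22, 18 and 4 UMIs over the days.

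Interstitial macrophages, taken as barcodes with at least 2 UMIs of Cd163 and of F13a1, numbered 1000, 461 and 293. Against these, 369, 406 and 561 genes were 2-fold apart, which is 5.16%, 5.73% and 7.79% of the genes measured. Higher ones were 2.45%, 2.53% and 2.94% of the genes measured and lower ones 2.71%, 3.2% and 4.84%. Of the 11 interstitial markers 7 were 2-fold lower in lining macrophages and 0 higher on each day, including both genes that chose the interstitial cells. Retnla, a secreted protein of resident macrophages, stood at 246, 154 and 470 CPM in lining macrophages and 3901, 2217 and 2728 CPM in interstitial ones. Folr2, a folate receptor, and Cbr2, a carbonyl reductase, did not follow that pattern, since Folr2 stood at 1741, 1780 and 1958 CPM in lining macrophages and 1504, 1545 and 1420 CPM in interstitial ones. Cbr2 stood at 939, 978 and 975 CPM in lining macrophages and 747, 655 and 693 CPM in interstitial ones. Pf4, a platelet-type chemokine, stood at 1465, 1482 and 1160 CPM in lining macrophages and 10434, 9401 and 7929 CPM in interstitial ones.

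The barcodes kept out for their early genes numbered 178, 260 and 173, with medians of 5393.5, 5604.5 and 5017 UMIs. Their lining markers were close to those of the lining macrophages. Olfml3 was 1.21-fold, 1.11-fold and 1.17-fold as high in lining macrophages as in them, and Cx3cr1 1.05-fold, 1.02-fold and 1.06-fold. Genes 2-fold apart were 164, 156 and 294, which is 2.35%, 2.24% and 4.23% of those measured. Higher ones were 0.817%, 0.688% and 1.93% of the genes measured and lower ones 1.53%, 1.55% and 2.3%. Of genes with at least 50 CPM, 21 were 2-fold lower in lining macrophages on all 3 days and 0 were higher, a count made after the values were seen. The genes that met this limit in this comparison were not counted, so no share is given for the 21. Cxcl2 stood at 32.7, 53.0 and 67.3 CPM in lining macrophages, against 324, 664 and 848 CPM in the barcodes kept out. Ccl4, a chemokine, stood at 100, 94.7 and 113 CPM in lining macrophages, against 539, 404 and 312 CPM. Others of the 21 were the early genes Fos, Jun, Junb and Btg2, the feedback regulators Dusp1, Zfp36, Nfkbia, Nfkbiz and Socs3, and the chemokines Ccl2 and Ccl3. The rule fixes the direction for genes that follow Atf3, Egr1, Fosb and Nr4a1 from cell to cell.

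Between days, the cells that met the rule differed little. The rule set the same Sparc, Vsig4 and early-gene limits on each day. Cells outside them do not enter, so the days are alike in part by construction. Day 2 over day 1, 6 genes were at least 2-fold higher (0.0858%) and 7 lower (0.1%), 0.186% of 6992 genes, and 0 of them met the naming rule with a mean of 50 CPM. Without the limit on early genes it gave 20 higher and 3 lower of 6984 genes. Day 5 over day 1 gave 38 higher (0.541%) and 18 lower (0.256%), 0.797% of 7025. Day 5 over day 2 gave 62 higher (0.881%) and 23 lower (0.327%), 1.21% of 7041. In the other barcodes the same 3 comparisons gave 11, 389 and 415 genes, which is 0.154%, 5.4% and 5.8%. Higher ones were 0.112%, 3.36% and 3.69% of the genes measured and lower ones 0.0419%, 2.04% and 2.11%. The middle 90% of genes lay between log2 ratios of -0.48 and 0.49 for day 5 over day 1 in lining macrophages, and between -0.78 and 0.78 in other barcodes. For day 2 over day 1 the order was the other way, with -0.40 to 0.40 in lining macrophages and -0.32 to 0.26 in other barcodes. Lining macrophages had fewer UMIs and so larger counting error in each comparison. The other barcodes mix cell types whose numbers differed by day, and what part of their spread that sets was not tested.

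**Figure D4:**
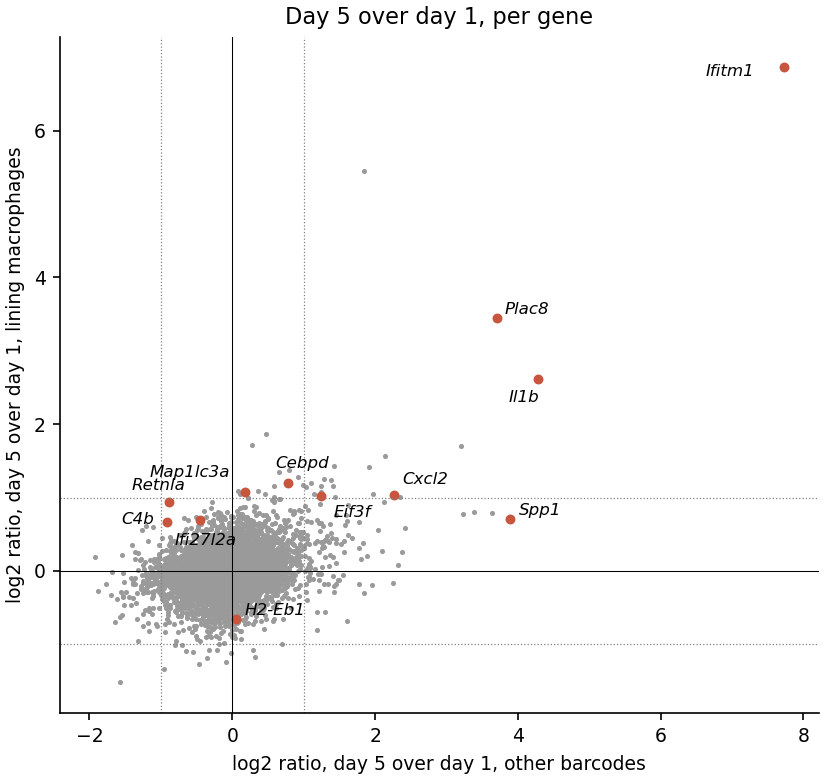
Log2 ratio of day 5 over day 1 in lining macrophages (vertical) and in other barcodes (horizontal) for 6707 genes with a mean of at least 10 CPM in both groups, 1 library a day; red points are named genes and dotted lines mark 2-fold. The points spread more along the horizontal axis, and C4b, Ifi27l2a and Retnla lie above 0 in lining macrophages and below 0 in other barcodes.

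The lists showed the same near-constancy among the cells that met the rule on each day. The rule left out barcodes with high early genes, which held more proinflammatory RNA. For day 5 over day 1, the complement, lysosomal, microglia-type, dead-cell uptake and TGF-beta lists had medians of 0.05, -0.04, -0.05, -0.11 and 0.03, and 0 of their genes passed 2-fold. In other barcodes the medians were -0.46, -0.26, -0.75, -0.67 and -0.11. Of 12 proinflammatory mediators measured in lining macrophages 2 passed 2-fold higher and 0 lower (median 0.28), against 10 and 0 of 16 in other barcodes (median 1.56). Of 12 matrix genes 0 passed in lining macrophages (median 0.14), against 10 higher and 0 lower of 18 in other barcodes (median 1.32). The limit of 10 CPM was applied in each group by itself, so the genes counted differ between the groups. The interferon response list had a median of 0.41 in lining macrophages over 20 genes with 2 past 2-fold higher and 0 lower, against 0.63 over 22 genes with 7 higher and 0 lower in other barcodes.

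At day 5 over day 1, 5 of 2426 genes that could be named, with at least 50 CPM, were 2-fold higher in lining macrophages and 0 were lower. Cebpd, a transcription factor of the acute phase response, stood at 30.7, 15.8 and 70.5 CPM at days 1, 2 and 5, and its day 5 over day 1 ratio was 2.299 (1.78 to 2.97), against 1.72 in other barcodes. Cxcl2 stood at 32.7 and 67.3 CPM at days 1 and 5 and had a ratio of 2.06 (1.59 to 2.65), against 4.78 in other barcodes. The 10 cells with most Cxcl2 held 52.0%, 48.9% and 36.5% of its UMIs at days 1, 2 and 5, so its interval is too narrow. Cebpd, Cxcl2 and Map1lc3a were under 50 CPM at day 1 and met the mean through day 5. Map1lc3a, an autophagy protein, had a ratio of 2.11 (1.70 to 2.61), against 1.14 in other barcodes. Eif3f, a translation initiation factor, and the uncharacterised transcript AY036118 had ratios of 2.03 and 2.06, against 2.37 and 2.22 in other barcodes of the same libraries. Eif3f and AY036118 thus stood higher at day 5 in both groups of cells.

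Day 5 over day 2, the genes 2-fold higher with at least 50 CPM numbered 11 of 2429, and some again had a like ratio in the other barcodes. Eif3f had a ratio of 3.53 (2.99 to 4.19), against 4.21 in other barcodes, and Vapa, a membrane tether of the endoplasmic reticulum, 2.56 against 2.55. Scand1 and Rala had 3.04 and 2.296, against 5.95 and 2.98. Tgfb1, the cytokine TGF-beta 1, stood at 93.6, 65.3 and 137 CPM over the days in lining macrophages, with a day 5 over day 2 ratio of 2.09 (1.72 to 2.56) against 1.98 in other barcodes. Metrnl, a secreted cytokine-like protein, had 2.54 (2.08 to 3.12) against 1.65. The 2 lower genes were Ccl7, which draws monocytes, with 37.9, 72.7 and 29.9 CPM over the days, and H2-Eb1, at 173, 224 and 110 CPM. For Ccl7 the ratio of 0.412 (0.300 to 0.558) stood beside 0.476 in other barcodes, and the 10 cells with most Ccl7 held 51.6% of its UMIs at day 2.

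With the limit lowered to 1.5-fold after the data were seen, 408 genes of lining macrophages differed at day 5 over day 1, which is 5.81% of those measured. Of 2426 genes that could be named, with at least 50 CPM, 22 were higher by this limit at day 5 than at day 1 and 8 were lower. C4b, complement component 4, stood at 100.5, 90.8 and 159 CPM in lining macrophages, against 149, 117 and 79.3 CPM in other barcodes. Its day 5 over day 1 ratio was 1.58 (1.36 to 1.85) in lining macrophages and 0.533 (0.494 to 0.574) in other barcodes. Ifi27l2a, an interferon-induced gene, stood at 1064, 1244 and 1723 CPM in lining macrophages, against 1349, 1138 and 984 CPM in other barcodes. Its ratios were 1.62 (1.55 to 1.70) in lining macrophages and 0.730 (0.714 to 0.746) in other barcodes. Both lay lower in lining macrophages than in other barcodes at day 1 and higher at day 5. UMIs of Ifi27l2a were spread over 83.9%, 87.2% and 89.6% of lining macrophages, and those of C4b over 29.9%, 30.7% and 39.4%. Among other genes of that group, Lgals3bp, a secreted glycoprotein, had a ratio of 1.98 (1.58 to 2.49) against 1.58 in other barcodes, and Ifitm3, an antiviral membrane protein, 1.60 (1.43 to 1.80) against 3.03. Cirbp, a cold-inducible RNA-binding protein, had 0.565 (0.488 to 0.652) against 0.447, and P2ry13, a purine receptor, 0.608 (0.460 to 0.795) against 0.521.

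Some genes that stood far higher at day 5 than at day 1 in other barcodes were low in lining macrophages at day 5. Il1b, which encodes interleukin-1 beta, stood at 11.9, 8.12 and 72.7 CPM in lining macrophages, against 65.3, 113 and 1273 CPM in other barcodes. Spp1, osteopontin, stood at 96.7, 132 and 158 CPM in lining macrophages, against 87.9, 158 and 1306 CPM in other barcodes. Plac8, a monocyte marker, stood at 2.06, 1.55 and 22.4 CPM in lining macrophages, against 36.8, 53.3 and 478 CPM in other barcodes. At day 5 the lining macrophages held Il1b at 5.71% of the level of other barcodes, Cxcl2 at 4.11%, Thbs1 at 7.14%, Ifitm1 at 5.83%, Plac8 at 4.69% and Spp1 at 12.1%. Clec4e stood at 11.7%, Osm at 14.7% and Arg1 at 39.7%. The mean of Arg1 at day 1 was under 10 CPM, too shallow to compare the groups, so no day 1 value is given for it. Of the 10 monocyte markers, Ly6c2, Chil3, Hp and Ms4a4c stood at 3.39%, 2.71%, 4.12% and 2.51%, F10 at 5.92% and Ccr2 at 7.37%. Gsr, an enzyme that reduces glutathione, stood at 24.4% and Vcan at 113%, so the list was not uniformly low. Of the Plac8 UMIs in lining macrophages at day 5, 92.9% lay in 10 cells, and of the Il1b UMIs 67.6% did. At least 1 Il1b UMI was found in 2.14%, 1.60% and 13.99% of lining macrophages, and in 1.53%, 0.414% and 5.76% after thinning to 2000 UMIs. The part of free monocyte RNA or of doublets in these low levels was not tested.

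Within a day, variation from cell to cell was read after thinning to 2000 UMIs, for genes with a mean of at least 0.1 UMI per cell. The variance over the mean of UMIs per cell is the Fano factor, which is 1 for pure counting. Over 2329 genes the Fano factor had a median of 1.02, 1.02 and 1.03 at days 1, 2 and 5. It was above 2 for 44, 51 and 55 genes. Apoe, a carrier of lipids, led with a mean of 39.2 over the days, followed by Cd74 at 35.3, the lysozyme gene Lyz2 at 24.6 and Retnla at 19.3. Actb, Wfdc17, Malat1, H2-Aa, H2-Ab1 and H2-Eb1 came next, from 14.1 to 8.37. For genes with few UMIs the factor lies near 1 even where cells differ, so the median does not show that most genes varied little. It also rises with the mean and with depth, so the order favours abundant genes. For Apoe it was 58.9 after thinning to 3000 UMIs.

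Apoe was found in nearly all cells but at very different levels. At day 1 the 25th percentile was 4 UMIs, the median 34 and the highest cell had 593. At day 2 these values were 3, 25 and 523, and at day 5 they were 4, 32 and 515. The summed level was 13677, 12328 and 13946 CPM. C1qa varied far less, with a 10th percentile of 25, 26 and 25 UMIs, a median of 45, 48 and 44 and a 90th percentile of 71, 80 and 76.

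Most UMIs of Cd74 and Retnla lay in few cells, although Cd74 was found in 45.3%, 49.5% and 48.7% of lining macrophages and Retnla in 31.7%, 25.3% and 30.6%. Cells with at least 20 Cd74 UMIs numbered 19, 17 and 8 and held 84.3%, 84.4% and 67.8% of the Cd74 UMIs of all lining macrophages. These cells had medians of 8214, 5676 and 8313.5 UMIs, above the 4600, 4938 and 4529.5 UMIs of lining macrophages as a whole. Their Vsig4 stood at 2388, 2237 and 1748 CPM and their TdTomato at 697, 856 and 524 CPM, below the levels of 4652, 4484 and 4529 CPM and 1166, 1208 and 1088 CPM over all lining macrophages. Cells with at least 10 Retnla UMIs numbered 14, 5 and 15 and held 59.6%, 48.9% and 80.3% of the Retnla UMIs. Whether these barcodes hold 1 cell or 2 cells of different types was not tested.

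**Figure D5:**
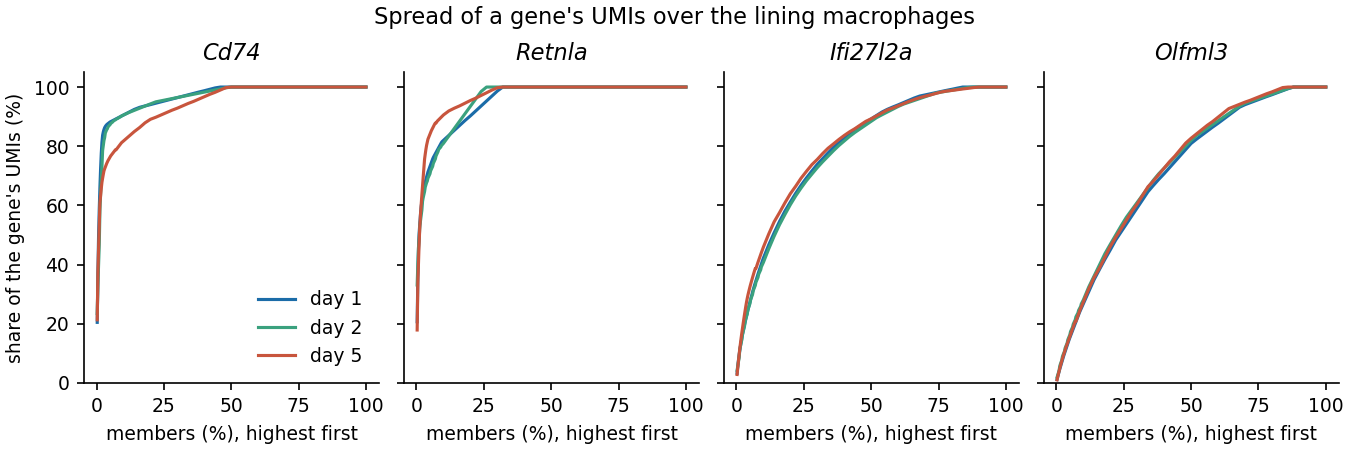
Share of a gene's UMIs (%) held by the lining macrophages with the most UMIs of that gene, against the share of lining macrophages counted from the highest, for Cd74, Retnla, Ifi27l2a and Olfml3 at days 1, 2 and 5. The curves of Cd74 and Retnla climb steeply over the first few percent of cells, and those of Ifi27l2a and Olfml3 climb gradually.

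Ratios between days were also taken without the cells highest in these genes. Over all lining macrophages Retnla had 470 CPM at day 5, against 246 CPM at day 1, a ratio of 1.91 (1.74 to 2.095). Without the 35, 23 and 23 cells with at least 10 UMIs of Cd74 or of Retnla, a choice made after seeing the data, the level was 99.2 CPM for day 5 and 98.4 CPM for day 1, a ratio of 1.01 (0.835 to 1.21). H2-Eb1 had a day 5 over day 2 ratio of 0.492 (0.417 to 0.578) with all cells and 0.954 (0.665 to 1.36) without them. Cd74 had 0.509 (0.473 to 0.548) with all cells and 0.998 (0.851 to 1.17) without them. C4b and Ifi27l2a kept ratios of day 5 over day 1 near those of all cells, at 1.65 (1.40 to 1.94) and 1.66 (1.58 to 1.74). Il1b had 6.13 (4.36 to 8.76) with all cells and 7.52 (4.73 to 12.4) without them. Because the cells left out were chosen by Cd74 and Retnla themselves, the values of Retnla, Cd74 and H2-Eb1 without them describe the cells that remain and do not test where a difference between days comes from. Without the cells left out, genes past 2-fold were 18 of 6974 for day 2 over day 1. They were 52 of 7009 for day 5 over day 1 and 88 of 7013 for day 5 over day 2.

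Several cell cycle genes were lower in lining macrophages than in other barcodes at days 1 and 5, and none by 2-fold at day 2. The summed list stood at 1633, 1844 and 1720 CPM in lining macrophages, against 2574, 2290 and 3175 CPM in other barcodes and 1921, 1850 and 2168 CPM in interstitial ones. Of 15, 15 and 22 measured genes, 6, 0 and 14 were 2-fold lower than in other barcodes and 0 higher, with medians of -0.81, -0.38 and -1.43. A gene can be measured by its level in other barcodes alone, which favours lower ones, so these numbers of different genes do not compare the days. Mki67, a marker of dividing cells, stood at 7.48, 11.2 and 9.08 CPM in lining macrophages, against 20.8, 17.4 and 25.4 CPM in other barcodes. Top2a, a topoisomerase of dividing cells, stood at 8.51, 11.2 and 10.7 CPM in lining macrophages, against 24.4, 17.2 and 43.5 CPM in other barcodes. Between days, 0 of the cell cycle genes measured in lining macrophages passed 2-fold.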

How the data were processed

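Per the labels' protocols, 17400 cells a sample were loaded for 10x Genomics 3′ libraries (v2). The deposited tables hold raw UMI counts per gene and barcode. The submitters' processing notes name Seurat 2.3, Cell Ranger 2.1.0, R 3.5.2 and mm10 without saying what each did. A gene is in a table where 5 or more of its barcodes hold it, and an unlisted one was not taken as 0.

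The members, lists and limits were chosen with earlier results of these data known. UMIs were summed over the cells of a group and day and scaled to CPM. Ratios needed a mean of at least 10 CPM, carry exact conditional Poisson 95% intervals, and set a count of 0 to 3 counts. Shares carry exact Clopper-Pearson intervals. List counts leave out Sparc, Vsig4, Atf3, Egr1, Fosb and Nr4a1. With 1 library a day no test was possible.

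To be named, a gene needed a mean of 50 CPM and a 2-fold difference. Genes were ordered by log2 ratio after adding 5 CPM, and left out mitochondrial, ribosomal, haemoglobin, sex-linked and predicted genes. Against other barcodes this had to hold on all 3 days, and the first 15 higher and 10 lower were taken. Between days the first 10 each way were taken, which for day 5 over day 2 was added later. For variation the first 15 by Fano factor were taken, and up to 5 genes of each list by size of ratio. Other genes, among them Ccl3, Mertk, Tjp1, Vcan, Folr2, Cbr2 and Fgf2, were chosen after their values were seen. Doublets were not called or removed. Some genes that met the rule are not reported here. Promoter sequences are from RefSeq, and all 3 genes sought were matched. The ratio calculation was tested on simulated data. Software was matplotlib 3.10.9, pandas 2.3.3, SciPy 1.17.1, NumPy 2.4.6 and Python 3.11.15.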

Additional observations from a re-analysis of the deposited data

Results flagged for a closer look

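Some genes had day ratios on opposite sides of 1 in lining macrophages and in other barcodes of the same libraries, with counting intervals that did not include 1. These intervals take each UMI as independent. They are too narrow where most UMIs lie in few cells, as for Retnla, Cd74, H2-Aa and H2-Eb1 in lining macrophages. The same holds on some days for Il1b, Ccl7 and Cxcl2, whose ratios are given above. With 1 library a day, no difference between the day ratios was tested. For day 5 over day 1, C4b had 1.58 in lining macrophages and 0.533 in other barcodes, and Ifi27l2a had 1.62 and 0.730. Tprgl, a regulator of synaptic vesicle release, had 1.65 and 0.867. Retnla had 1.91 and 0.543 and H2-Eb1 had 0.634 and 1.04. For day 5 over day 2, C4b had 1.75 in lining macrophages and 0.677 in other barcodes. Vmp1, an autophagy protein, had 0.661 and 1.15. The MHC class II genes Cd74, H2-Aa and H2-Eb1 had 0.509, 0.564 and 0.492 in lining macrophages, and 1.26, 1.48 and 1.39 in other barcodes. Most UMIs of Retnla and Cd74 in lining macrophages lay in few cells. Without the cells with at least 10 UMIs of Cd74 or Retnla, a choice that uses these genes, the day 5 over day 2 ratios in lining macrophages were 0.998 for Cd74, 0.913 for H2-Aa and 0.954 for H2-Eb1.

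The day 0 library, which the comparisons leave out, also held barcodes within the same limits. They were 7.05% of its passing barcodes (262 of 3715, 6.25 to 7.92%), with a median of 1250 UMIs, so the limits of 3 UMIs ask for a larger part of each cell's RNA there than on other days.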

How the results depend on the processing

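No paired analysis was possible because each day had 1 library, and for the same reason no replicate could be left out. Shares moved past their counting intervals with at least 1000 genes (20.05% and 20.3% at days 1 and 2), at least 2 UMIs of Sparc and Vsig4 (18.7% and 20.2%), at least 5 (14.3%, 15.4% and 9.86% at days 1, 2 and 5), no limit on early genes (21.0%, 27.9% and 17.3%) and thinning to 2000 UMIs (16.0% at day 1). Genes 2-fold apart between days in lining macrophages were 13, 56 and 85 for day 2 over day 1, day 5 over day 1 and day 5 over day 2. They became 219 of 6959, 290 of 6998 and 410 of 6958 genes with thinning, which leaves fewer UMIs per gene. With no filter on low values, which lets in genes with few UMIs, they were 1120 of 11790, 1421 of 11828 and 1401 of 11623. A 1.5-fold limit, added later, gave 206 of 6992, 408 of 7025 and 495 of 7041. Day 2 over day 1 also moved to 23 of 6984 with no limit on early genes. It was 29 of 6991 without barcodes over 2 times the median UMIs and 21 of 7028 with the mean of each cell's CPM. Against other barcodes, 308 of 7128, 264 of 7067 and 874 of 7164 genes became 1639 of 12527, 1417 of 12047 and 2757 of 12446 with no filter. At day 2 the number became 415 of 7047 with thinning. The share of these genes that were higher was 46.2%, 67.9% and 72.9% between days and 32.2% against other barcodes at day 2. It moved by over 10 points to 63.6% (2 UMIs), 87.0% (no limit on early genes) and 65.5% (without high-UMI barcodes) for day 2 over day 1. For day 5 over day 1 it was 78.6% with no limit on early genes and 50.7% with thinning, for day 5 over day 2 53.9% with thinning and 58.1% with no filter, and against other barcodes at day 2 45.4% and 42.9% with no limit on early genes and with thinning. With other barcodes that held a UMI of both Sparc and Vsig4 left out, genes higher at day 2 were 149 in place of 85, and of the named-gene ratios 57 moved and 18 stayed. H2-Eb1, day 5 over day 2, reversed to a log2 ratio of 0.079 with thinning. Except where the limit itself sets the number, the cause was not tested. Of the list medians under all alternatives 1424 stayed within their range and 88 moved, and of single-gene ratios 1456 stayed and 347 moved. Genes under a mean of 10 CPM are too shallow to compare.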
